A study of Mus musculus with 2 samples.

Results

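*Tbr1*, *Fezf2* and *Nr4a2* are 3 of the 500 genes that were counted molecule by molecule in 1 coronal head section each of a control and a *Dnmt1* knockout (KO) mouse embryo at E16.5. The 3 genes were taken by name, for their place among the regulators of deep cortical layers, with earlier results of these data known. They were followed through single cells, through the depth of the cortex, from its medial to its lateral edge, and at sites outside it. The control embryo carried *Sst-Cre* and a *tdTomato* reporter, and the KO embryo carried the same alleles together with *Dnmt1 loxP2*. Cre is driven from the somatostatin gene, so that deletion is limited to cells that have expressed *Sst*, mostly interneurons, and whether cells with the 3 genes are among them was not tested. *Dnmt1* was not on the panel, and the genotypes could not be checked here. With 1 section per group there is no test between genotypes. The genotype cannot be told apart from the level of the cut or from any other difference between the sections. Whether they shared an imaging run is not given in the sources used here.

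TBR1 is a T-box transcription factor of early-born glutamatergic neurons, needed for the corticothalamic neurons of the deepest cortical layer and for the subplate, and it represses *Fezf2* there. FEZF2 is a zinc finger factor that specifies the neurons projecting from the cortex to the brainstem and spinal cord, and it is also made by cortical progenitors. NR4A2, also named Nurr1, is an orphan nuclear receptor known from the subplate, the claustrum and the deep lateral cortex, and from dopamine neurons of the midbrain. In the GRCm39 annotation, *Tbr1* (ENSMUSG00000035033) lies on chromosome 2 at 61633274 to 61644458, *Fezf2* (ENSMUSG00000021743) on chromosome 14 at 10121574 to 10127680, and *Nr4a2* (ENSMUSG00000026826) on chromosome 2 at 56996842 to 57014331. The transcripts that the files name for them have 6, 5 and 8 exons.

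The assay, MERFISH, reads each RNA molecule in the tissue through a fluorescent barcode, and cells are outlined on the images. The control section held 108533 segmented cells with a median of 20 panel transcripts, and the KO section held 110004 cells with a median of 101. Only cells with at least 20 panel transcripts were used, which were 50.9% of cells on the control section and 92.0% on the KO section. The pallial region, which is the cortex with its medial and lateral edges, was outlined from other cortical and striatal genes and held 14026 control and 32470 KO cells. The median cell depth differed between hemispheres, at 14 and 22 transcripts on the control section and 90 and 108 on the KO section. Levels are given in CPM, transcripts of a gene per 1000000 panel transcripts in the cells named, with exact Poisson 95% intervals, and shares with exact binomial ones, which cover counting error only. Each gene has its own probes, so that levels are compared between places and cells and not between genes.

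Over the whole pallial region, *Tbr1* was counted at 38238 CPM (37727 to 38755) on the control section and 35357 CPM (35175 to 35540) on the KO section. *Fezf2* was counted at 17364 CPM (17020 to 17713) and 15069 CPM (14950 to 15189). *Nr4a2* was counted at 11998 CPM (11713 to 12289) and 7560 CPM (7476 to 7645). These averages covered sharply different layouts, shown by the maps of each gene over the sections: *Tbr1* formed a broad band around the whole cortex, *Fezf2* a thinner and more superficial band that faded laterally, and *Nr4a2* a thin line below the *Tbr1* band that ended in a dense patch at the lateral edge.

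**Figure D1:**
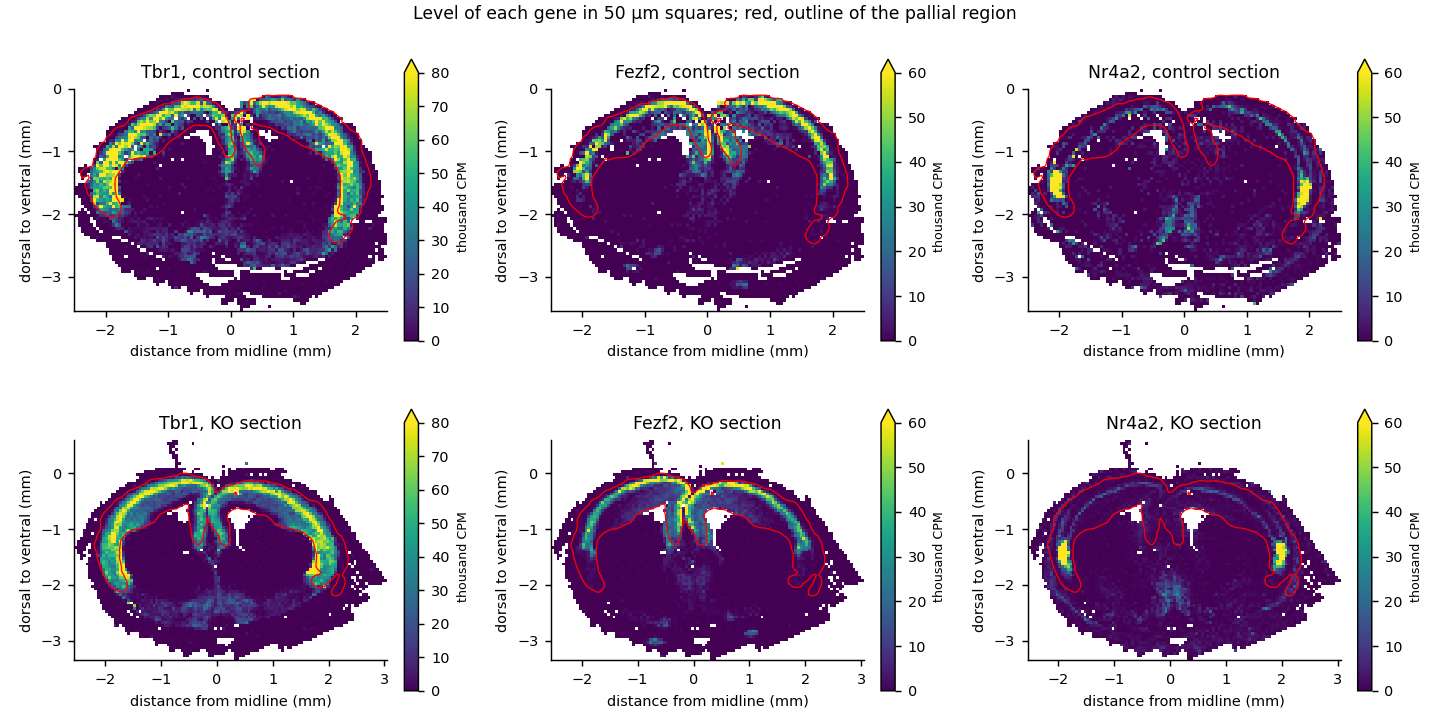
Level of *Tbr1*, *Fezf2* and *Nr4a2* (columns) in squares of 50 µm across the control (top) and KO (bottom) sections, in units of 1000 CPM, with both axes in mm and the outline of the pallial region in red. The dense lateral *Nr4a2* patch appears once in each of the 4 hemispheres, where *Fezf2* is below its hemisphere level, and faint *Tbr1* and *Nr4a2* signal lies ventrally outside the outline.

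Over the cortex as a whole, the median depths of the 3 genes ran in the order *Fezf2*, *Tbr1*, *Nr4a2* from the outer to the inner side. This order did not hold at the lateral edge, as given below. Relative depth was set at 0 at the outer edge of the outlined region and at 1 at its inner edge. Where the outer edge lies against the marginal zone was not measured. *Fezf2* transcripts had a median relative depth of 0.318 (0.316 to 0.322) on the control section and 0.250 (0.250 to 0.251) on the KO section. *Tbr1* transcripts had a median of 0.419 (0.414 to 0.425) and 0.397 (0.394 to 0.399). *Nr4a2* transcripts lay deepest, at 0.541 (0.538 to 0.544) and 0.574 (0.573 to 0.575). All panel transcripts together had medians of 0.379 and 0.420, so that *Fezf2* lay outside and *Nr4a2* inside the middle of the counted material in both sections. The order of the 3 medians was the same in each of the 4 hemispheres. *Fezf2* was at 0.250 and 0.340 in the control hemispheres and at 0.246 and 0.254 in the KO hemispheres, so that 1 control hemisphere stood at the KO level. For *Nr4a2* the hemispheres gave 0.544 and 0.539 on the control section and 0.555 and 0.580 on the KO section.

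With relative depth cut into 10 equal bins, *Tbr1* peaked in bin 4 of the control section, at 63271 CPM, and in bin 3 of the KO section, at 51305 CPM. It then declined slowly and still stood at 32718 and 29341 CPM in the innermost bin. *Fezf2* peaked 1 bin further out in each section, at 35404 and 30572 CPM, and fell to 6796 and 5871 CPM in the innermost bin. Pooled over the cortex, the long inner tail of *Tbr1* against the steep inner fall of *Fezf2* was the main difference in their profiles. Most of this tail lay laterally, as given below. *Nr4a2* had low levels at both edges, with 1878 and 1396 CPM in the outermost and 1749 and 1856 CPM in the innermost bin. Its peak lay in bin 6 of the control section, at 35914 CPM, and was shared by bins 6 and 7 of the KO section, at 20460 and 20500 CPM.

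**Figure D2:**
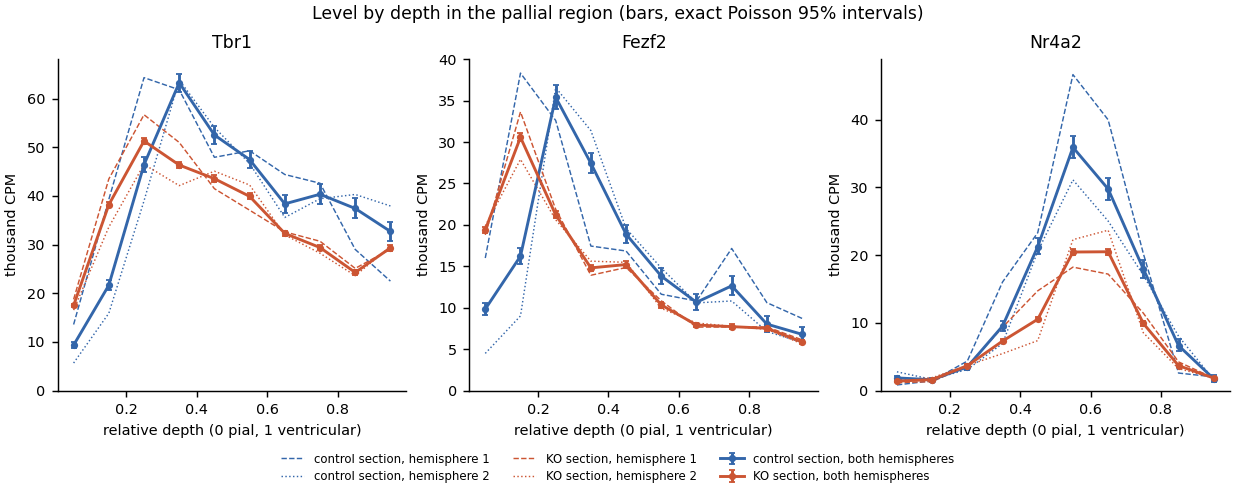
Level of each gene (in 1000 CPM) by relative depth in the pallial region, with solid lines for both hemispheres of the control (blue) and KO (red) sections, exact Poisson 95% intervals as bars, and broken lines for single hemispheres. *Fezf2* peaks nearest the outer edge, *Tbr1* next, and *Nr4a2* peaks in the inner part, at 35914 CPM on the control section and 20500 CPM on the KO section.

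The depth at which *Tbr1* and *Fezf2* peaked shifted inward from medial to lateral. The region was cut into 5 segments of equal area around each hemisphere, from segment 1 at the medial wall to segment 5 at the lateral edge. *Fezf2* peaked in bin 2, 3, 3 and 5 of control segments 1 to 4, and in bin 1, 2, 2 and 5 of the same KO segments. *Tbr1* peaked in bin 3, 4, 4 and 6 of control segments 1 to 4 and in bin 2, 3, 3 and 6 of the KO ones, so that it lay 1 bin below *Fezf2* in each of these 8 segments. In bin 10 of segment 4, *Tbr1* still stood at 66163 CPM (control) and 59433 CPM (KO). In segment 2 it fell from its peaks of 74916 and 76548 CPM to 2256 and 526 CPM in bin 10. *Fezf2* fell less steeply there, from 67922 and 60937 CPM to 9475 and 9032 CPM, and likewise in KO segment 1. In segment 3 of both sections, *Fezf2* had the steeper fall. *Nr4a2* formed a thin line 1 bin below *Tbr1* in segments 2 and 3 of both sections, with peaks of 11971 and 17503 CPM on the control section and 9572 and 8437 CPM on the KO section. In segment 1 this line was seen in the control section, at 10251 CPM in bin 4, while the KO segment had a weaker band 1 bin below its *Tbr1* peak, at 3210 CPM in bin 3 against 856 CPM in bin 4, and its highest level, 3665 CPM, in bin 10. In segment 4 *Nr4a2* peaked in bin 8 of the control section, at 15719 CPM, and in bin 7 of the KO section, at 16390 CPM, so that its peak had no steady shift along the cortex.

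In segment 4 the median depths of *Nr4a2* (0.531 control, 0.534 KO) and *Tbr1* (0.531 and 0.535) nearly coincided. Segment 5 had another layout, and it held 72.3% and 68.1% of the pallial *Nr4a2* transcripts. There *Fezf2* had the deepest median, at 0.653 and 0.610, with *Nr4a2* at 0.572 and 0.590 and *Tbr1* at 0.564 and 0.580. *Tbr1* was highest in the innermost bin of segment 5, at 66046 CPM on the control section and 61561 CPM on the KO section. *Fezf2* had no superficial band and reached at most 13503 and 6733 CPM, in bin 8. *Nr4a2* reached 86045 CPM in bin 6 of the control and 69392 CPM in bin 7 of the KO section, the highest levels that it had in any bin of any segment.

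Along the cortex from medial to lateral, *Tbr1* was nearly level, *Fezf2* declined, and *Nr4a2* rose at the lateral end. *Tbr1* stood at 34139, 40410, 38605, 39581 and 37932 CPM in control segments 1 to 5, and at 33541, 29876, 33162, 42629 and 37002 CPM in the KO section. Its lateral segment differed from its medial one by a log2 ratio of 0.15 (0.09 to 0.22) on the control section and 0.14 (0.12 to 0.17) on the KO section, and by 0.00 to 0.28 in single hemispheres. *Tbr1* therefore had no gradient larger than its own unevenness between segments.

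*Fezf2* fell from 33033 CPM in the most medial segment to 24184, 17394, 16700 and 4693 CPM in the control section. In the KO section it fell from 29678 CPM to 19417, 12195, 13927 and 3219 CPM. The medial segment was 7.04-fold above the lateral one on the control section and 9.22-fold on the KO section, and between 6.64- and 13.6-fold in the 4 hemispheres. The step from segment 4 to segment 5 was the steepest in both sections, and segments 3 and 4 were close.

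*Nr4a2* ran the other way. It stood at 3136, 4807, 4125, 5806 and 31657 CPM in control segments 1 to 5, and at 1930, 2578, 1740, 6087 and 22987 CPM in the KO section. The lateral segment was 10.1-fold above the medial one on the control section and 11.9-fold on the KO section, and between 11.3- and 12.5-fold in single hemispheres. The first 3 segments lay within a narrow range in each section. In CPM the last step was the largest in both sections, and in folds it was so in the control section, while the KO level rose by similar folds from segment 3 to 4 and from 4 to 5. In KO hemisphere 2, with 1606, 8203 and 20213 CPM in segments 3 to 5, the larger fold was the step from 3 to 4.

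**Figure D3:**
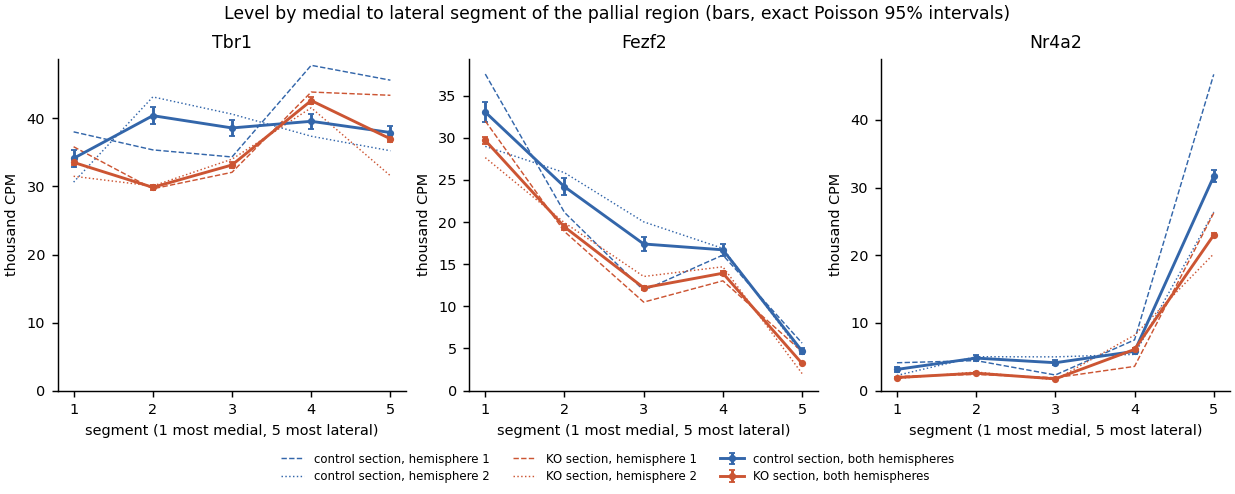
Level of each gene (in 1000 CPM) in 5 segments of the pallial region from the most medial (1) to the most lateral (5), with solid lines for both hemispheres of the control (blue) and KO (red) sections, exact Poisson 95% intervals as bars, and broken lines for single hemispheres. *Tbr1* shows no steady trend, *Fezf2* falls from 33033 to 4693 CPM in the control section, and *Nr4a2* rises from 5806 to 31657 CPM in its last step.

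The high level of lateral *Nr4a2* lay in 1 compact patch in each hemisphere, taken as connected tissue with a smoothed level of at least 30000 CPM. The 4 patches measured 0.129 and 0.113 mm² on the control section and 0.100 and 0.0988 mm² on the KO section, which was 5.19% to 7.81% of the area of a hemisphere's pallial region. They held 65.1% to 77.1% of that region's *Nr4a2* transcripts. Their centres lay 1901 to 2040 µm from the midline and 1443 to 1656 µm below the dorsal edge, where the claustrum and the deep lateral cortex lie, which were not told apart here. Inside the patches *Nr4a2* stood at 73741 to 88144 CPM. *Tbr1* was 1.31- to 1.59-fold above the level of its hemisphere there, and *Fezf2* was at 0.712 to 0.823 of its hemisphere level. *Grin3a*, which encodes a subunit of NMDA receptors, was 5.13- to 6.95-fold higher in the patches than over the hemisphere. Chosen for its *Nr4a2*, the patch was thus also above the average of its hemisphere in *Tbr1* and below it in *Fezf2* in all 4 hemispheres. The patches were not all confined to segment 5. In control hemisphere 1 the patch held 1878 *Nr4a2* transcripts against 1848 in segment 5, and in KO hemisphere 2 10683 against 9997. *Fezf2* was higher in the patch than in segment 5 of the same hemisphere, at 13752 against 5640 and 12468 against 4363 CPM on the control section. On the KO section it stood at 10904 against 4626 and 12231 against 2026 CPM. Segment 4 had 16078 and 16867 CPM (control) and 13025 and 14688 CPM (KO) of *Fezf2*. How much of each patch lay there was not measured, so that no rise of *Fezf2* within segment 5 is shown.

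Across 50 zones of depth and segment, the other panel genes with the most similar layout differed for each of the 3. Pearson's r is given for the control and KO sections as a description over zones of the same section, and 139 genes found in at least 2% of cells were ranked. For *Tbr1* the nearest were *Kcng1* (0.87 and 0.86), a potassium channel subunit, *Gng2*, *Rbfox1*, *Cdh13* and *Drd1*. For *Fezf2* they were *Tox* (0.78 and 0.83), *Syt6* (0.73 and 0.75), *Cnr1*, which encodes the cannabinoid receptor of neurons, *Bcl11b* (0.66 and 0.64), a factor of subcerebral projection neurons, and *Trp53i11*. For *Nr4a2*, *Grin3a* stood apart at 0.91 and 0.93, followed by *Gabra5* (0.71 and 0.67), *Chrm1*, *Rab3b* and *Fxyd6*. Between the 3 genes themselves, *Tbr1* and *Fezf2* had r of 0.51 and 0.41, *Tbr1* and *Nr4a2* 0.23 and 0.26, and *Fezf2* and *Nr4a2* -0.14 and -0.16.

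In single cells, *Tbr1* was found together with each of the other genes slightly more often than their shares in the same place would give, while *Fezf2* and *Nr4a2* showed no steady relation. Each cell was thinned at random to 25 transcripts, which left 10650 control and 31911 KO cells, and joint detection was set against the product of the single shares within 15 zones of depth and segment. *Tbr1* and *Fezf2* were found together in 1978 control cells against 1730 expected, a ratio of 1.14 (1.09 to 1.19), and in 4999 KO cells against 4612, a ratio of 1.08 (1.05 to 1.11). *Tbr1* and *Nr4a2* had ratios of 1.08 (1.01 to 1.15) and 1.09 (1.03 to 1.15), from 958 and 1468 cells. The median ratio with *Tbr1* over the 139 ranked genes was 1.04 and 1.03, so that *Nr4a2* lay near the usual value. *Fezf2* and *Nr4a2* were found together in 321 and 467 cells, with ratios of 1.08 (0.97 to 1.21) on the control section and 0.913 (0.832 to 1.0) on the KO section, so that neither interval lies clear of 1.

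These ratios were small and moved with the zones and with the rule for detection. Over the whole region, with no zones, the *Fezf2* and *Nr4a2* ratio was 0.809 on the control section and 0.732 on the KO section, and those of *Tbr1* with either gene were 1.21 to 1.25. In finer zones of 10 depth steps they were 1.04 and 1.05 for *Tbr1* and *Fezf2* and 1.04 and 1.03 for *Tbr1* and *Nr4a2*. With at least 2 transcripts of each gene required, the *Tbr1* and *Nr4a2* ratio of the control section went to 0.985, and those of *Fezf2* and *Nr4a2* to 0.799 and 0.631. Among the 139 genes, *Fezf2* ranked 25th and *Nr4a2* 47th by codetection with *Tbr1*, and *Nr4a2* ranked 65th with *Fezf2*. None of the 3 pairs passed a 1.5-fold excess in both sections, which 0% of the 139 genes did with *Tbr1*, 0% with *Fezf2* and 0.719% with *Nr4a2*. A shortfall of 1.5-fold in both sections, which no pair showed either, was reached by 12.9% of genes with *Tbr1*, 9.35% with *Fezf2* and 4.32% with *Nr4a2*.

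The shares also changed with the amount of transcript per cell. The share of cells with *Fezf2* rose with the number of *Tbr1* transcripts among the 25, from 19.97% of control cells with none to 30.0%, 35.5% and 42.8% of those with 1, 2 and 3 or more. In the KO section the same shares were 20.6%, 28.6%, 33.4% and 36.1%. The share with *Nr4a2* fell with the number of *Fezf2* transcripts, from 14.4% to 12.5%, 10.2% and 6.72% in the control and from 8.40% to 6.77%, 4.62% and 2.77% in the KO section. Read the other way, *Fezf2* was found in 28.6%, 27.2%, 22.7% and 13.4% of control cells with 0, 1, 2 and 3 or more *Nr4a2* transcripts, and in 26.6%, 21.8%, 17.6% and 11.3% of KO cells. *Tbr1* rose with *Nr4a2* instead, from 51.6% to 72.8% on the control section and from 48.8% to 72.2% on the KO section. These shares run over all places in the cortex, so that the different layouts of the genes are part of them, and in the innermost of 3 equal depth ranges they ran differently. There the share with *Nr4a2* was higher in cells with *Fezf2*, at 12.3%, 17.5%, 24.2% and 32.1% of control cells with 0, 1, 2 and 3 or more *Fezf2* transcripts, the last from 28 cells, and at 6.39%, 9.65%, 12.98% and 10.6% of KO cells. *Fezf2* in the innermost range was found in 18.2% of KO cells with no *Tbr1* and in 9.20%, 9.14% and 9.36% of those with 1, 2 and 3 or more, and in 20.3%, 14.7%, 20.8% and 18.05% of control cells. In the middle range the share with *Nr4a2* fell with *Fezf2*, from 24.4% to 15.06%, 10.3% and 9.76% in the control section, and from 11.7% to 7.84%, 7.23% and 6.98% in the KO section. In the outermost range it fell in the KO section, from 6.94% to 4.69%, 2.28% and 1.58%, and had no steady fall in the control section, at 6.19%, 7.19%, 6.25% and 3.34%. The fall of *Nr4a2* with *Fezf2* and the rise of *Fezf2* with *Tbr1* were thus not found in the innermost range. *Tbr1* had no steady rise with *Fezf2* there either, with shares of 50.9%, 41.5%, 50.5% and 75.0% in the control section, and KO shares of 38.9%, 22.1%, 20.2% and 42.6%.

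Stray molecules set a floor to such shares. Among pallial cells with at least 2 transcripts of microglial markers (118 control and 254 KO cells, with median depths of 40 and 114), *Tbr1* was found in 14.4% and 19.3%, *Fezf2* in 6.78% and 5.91%, and *Nr4a2* in 2.54% and 2.76%. The KO share of *Nr4a2* among cells richest in *Fezf2*, 2.77%, therefore stood at this microglial background. The control share, 6.72% (4.77% to 9.14%), was higher than its background but overlapped the interval of it (0.527% to 7.25%). *Fezf2* among cells richest in *Nr4a2* was higher than its background in both sections, with intervals that overlapped, at 10.2% to 17.1% against 2.97% to 12.9% in the control section and at 8.62% to 14.4% against 3.34% to 9.55% in the KO section.

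**Figure D4:**
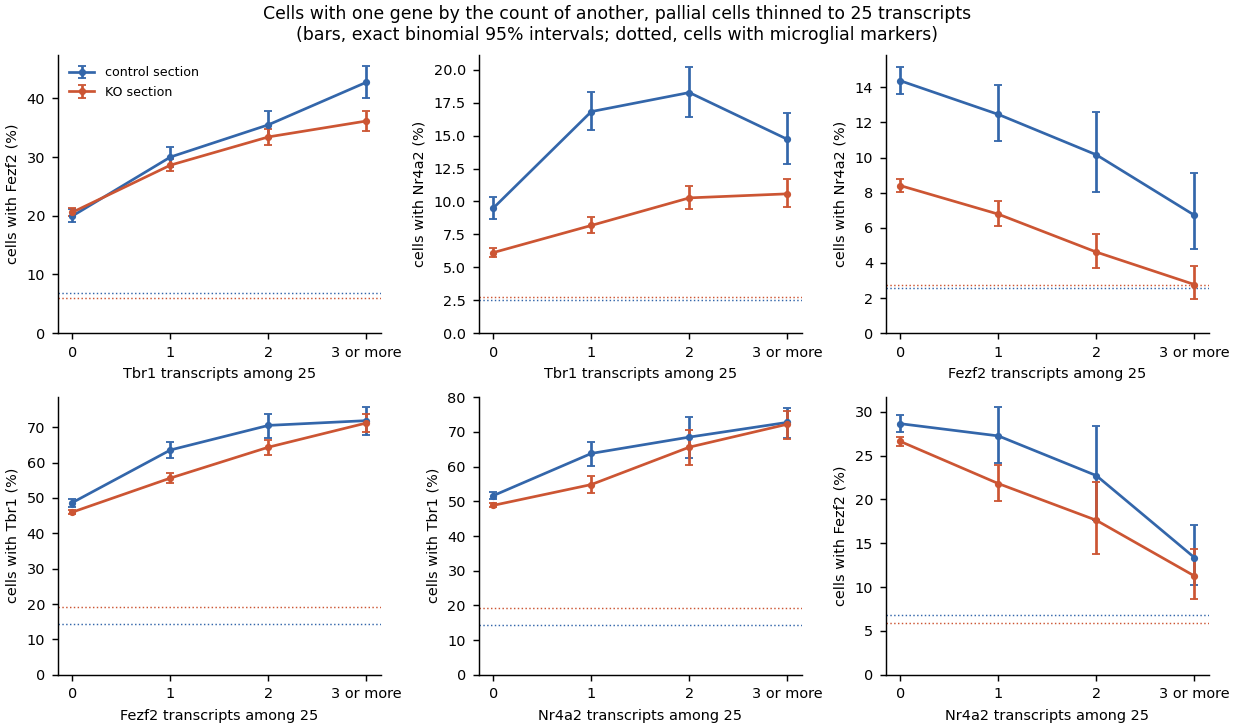
Share of pallial cells with 1 of the genes (percent) by the number of transcripts of another among 25, in the control (blue) and KO (red) sections, with exact binomial 95% intervals as bars and dotted lines for the share in cells with microglial markers. Over the whole region *Fezf2* rises with *Tbr1*, *Nr4a2* falls with *Fezf2*, and *Tbr1* rises with both, whereas in the innermost of 3 depth ranges, which are not plotted apart, no steady rise is found between *Fezf2* and *Tbr1*, and *Nr4a2* does not fall with *Fezf2*.

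Deeper cells were counted for high levels of more than 1 gene. In 16636 KO cells thinned to 100 transcripts, a gene was called high at 5 or more, which 34.7% of the cells were for *Tbr1*, 10.9% for *Fezf2* and 4.48% for *Nr4a2*. Of the 1820 *Fezf2*-high cells, 96.3% had *Tbr1* and 58.2% were also *Tbr1*-high, whereas *Nr4a2* was found in 11.5% (10.05% to 13.04%), against 20.5% of all cells and 12.03% of microglial-marker cells, and 1.21% were *Nr4a2*-high. Of the 745 *Nr4a2*-high cells, 98.1% had *Tbr1* and 58.5% were *Tbr1*-high. *Fezf2* was found in 32.9% of them against 45.2% of all cells and 17.9% of microglial-marker cells, and 2.95% (1.86% to 4.44%) were *Fezf2*-high. High *Tbr1* was thus more frequent in cells high in either other gene than over all cells, and high *Fezf2* and high *Nr4a2* coincided less often than over all cells.

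The shortage of cells high in both *Fezf2* and *Nr4a2* did not hold within the lateral segment. Of the 581 *Nr4a2*-high cells there, 27.5% had *Fezf2* and 2.07% (1.07% to 3.58%) were *Fezf2*-high, against 13.7% and 1.55% of all 3814 cells of the segment. Of its 59 *Fezf2*-high cells, 62.7% had *Nr4a2* and 20.3% (10.98% to 32.8%) were *Nr4a2*-high, against 37.2% and 15.2% of all cells. In the other 4 segments, 51.8% (43.9% to 59.7%) of 164 *Nr4a2*-high cells had *Fezf2*, against 54.6% of all cells, and 6.10% (2.96% to 10.9%) were *Fezf2*-high, against 13.7% of all cells. The control section had too few cells of this depth for the same count, with 423 in all.

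Sorted by which of the 3 genes they held among 25 transcripts, 33.5% of control and 37.4% of KO cells held none. *Tbr1* alone was the commonest class, at 28.3% and 30.3%, followed by *Tbr1* with *Fezf2*, at 16.4% and 14.8%, and *Fezf2* alone, at 8.38% and 9.80%. *Tbr1* with *Nr4a2* made up 6.85% and 3.70%, and *Nr4a2* alone 3.53% and 2.51%. *Fezf2* with *Nr4a2* but no *Tbr1* was the rarest, at 0.864% and 0.564%, and all 3 genes were found in 2.15% and 0.899% of cells. A class at 25 transcripts is a sample of a cell, and a gene that is missing from it may still be present in the cell.

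*Fezf2* was also found among 623 control and 2449 KO cells with radial glial markers (*Hopx*, *Aldoc*, *Sox9*), the stem cells of the cortex, in shares of 27.1% (23.7% to 30.8%) and 24.5% (22.8% to 26.2%), close to the 27.8% and 26.0% of all thinned pallial cells. *Tbr1*, by contrast, was found in 14.4% and 8.21% of these cells against 53.7% and 49.7% of all cells. In microglial-marker cells its shares were 14.4% and 19.3%. *Nr4a2* was found in 7.38% and 6.37% of them, against 13.4% and 7.68% of all cells. *Fezf2* was likewise found in 21.7% of 355 KO cells with at least 2 transcripts of *Eomes*, the marker of intermediate progenitors, and in 5 of the 21 such control cells. Cells with the Cajal-Retzius markers *Reln* and *Ndnf*, the earliest neurons of the marginal zone, had *Tbr1* in 42.1% of 121 and 37.1% of 310 cells and *Fezf2* in 3.31% and 3.55%. The *Tbr1* shares were below those of all cells and near those of cells with GABAergic markers, at 41.4% and 34.3%.

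The genes that travelled with each combination differed. A cell counted as having a gene with 2 or more of its 25 transcripts and as lacking it with 0, and the remaining genes were read in CPM without the 3. Cells with both *Tbr1* and *Fezf2* (532 control, 1181 KO) lay at a median relative depth of 0.326 and 0.195, and cells with *Tbr1* and no *Fezf2* (1822 and 5036) lay deeper, at 0.472 and 0.437. Against the latter, the double cells had 3.24-fold (2.58 to 4.07) and 2.64-fold (2.42 to 2.87) more *Syt6*, a synaptotagmin known from corticothalamic neurons. *Mc4r*, a melanocortin receptor, was 3.08- and 2.07-fold higher, *Tox* 2.72- and 3.47-fold, *Rorb* 2.497- and 2.41-fold, and *Bcl11b* 1.66- and 1.81-fold. Lower in the double cells were *Cux2*, a factor of upper layer neurons, at 0.34 and 0.25 of the level, *Sstr2* at 0.27 and 0.28, and *Unc5d*, a netrin receptor of migrating upper layer neurons, at 0.20 and 0.09. Not all deep-layer genes were higher, since *Nxph4*, known from the subplate and the deepest layer, was at 0.67 and 0.66 of the level in the double cells.

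Cells with *Fezf2* and no *Tbr1* (364 and 1080) had more of the progenitor genes than cells with *Tbr1* and no *Fezf2*, which were chosen for a gene that is rare in radial glia. *Sox9* was 4.41- and 6.60-fold above its level in the latter, *Aldoc* 6.28- and 7.54-fold, *Hopx* 7.34- and 12.3-fold, and *Eomes* 3.82- and 3.37-fold. Against cells with none of the 3 genes they were not raised alike, with *Sox9* at 1.01- and 0.91-fold, *Aldoc* at 1.02- and 0.76-fold, *Eomes* at 1.78- and 0.79-fold and *Hopx* at 1.67- and 1.41-fold. Within zones, *Fezf2* was codetected with *Sox9* at ratios of 0.940 and 0.964 and with *Aldoc* at 0.952 and 0.995. The cells with *Fezf2* and no *Tbr1* had a superficial median relative depth, 0.284 and 0.220, and 7.14% and 12.8% of them lay in the innermost 2 bins. Where the stem cells of the cortex lie against these bins was not measured. In segments 4 and 5 the innermost bin had 59433 to 66163 CPM of *Tbr1*. *Slc17a7*, the vesicular glutamate transporter, was 2.01- and 2.37-fold higher in the cells with *Tbr1* and no *Fezf2*.

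*Nr4a2* cells of the lateral segment and of the 3 medial segments were unlike each other. They also differed in median relative depth, at 0.572 and 0.589 for the lateral and 0.387 and 0.320 for the medial cells. Other cells of the same places were not set beside them, so that traits of the place and of *Nr4a2* cells cannot be told apart. The lateral cells (495 control, 604 KO) had 50133 and 35895 CPM of *Grin3a*, against 778 and 1489 CPM in the medial cells (92 and 116), where the control value rests on 3 transcripts. *Nxph4*, a neurexophilin, ran the other way, with 500 and 462 CPM in the lateral and 21012 and 12909 CPM in the medial cells. The medial cells also had 3.93- and 4.09-fold more *Drd1*, 6.31- and 5.41-fold more *Mc4r*, 5.90- and 5.48-fold more *Tox*, and 3.16- and 4.02-fold more *Ntsr1*, a receptor of corticothalamic neurons. *Cux2* was 2.11- and 2.38-fold higher in the lateral cells, and *Gad1* 4.24-fold (1.76 to 13.4) and 8.42-fold (3.83 to 23.1), from 5 and 6 *Gad1* transcripts in the medial cells. *Slc17a7*, the glutamate transporter of cortical neurons, was similar in both, at 0.85 and 0.98 of the medial level. *Slc17a6*, the glutamate transporter more typical of subcortical neurons, was 2.14-fold (0.67 to 10.97) and 3.50-fold (1.81 to 7.74) higher in the lateral cells, from 3 and 9 transcripts in the medial ones. At least 1 *Tbr1* transcript was found in 69.3% and 70.5% of the lateral cells and 83.7% and 72.4% of the medial ones, and *Fezf2* in 15.2% and 9.77% of the lateral and 17.4% and 16.4% of the medial ones.

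**Figure D5:**
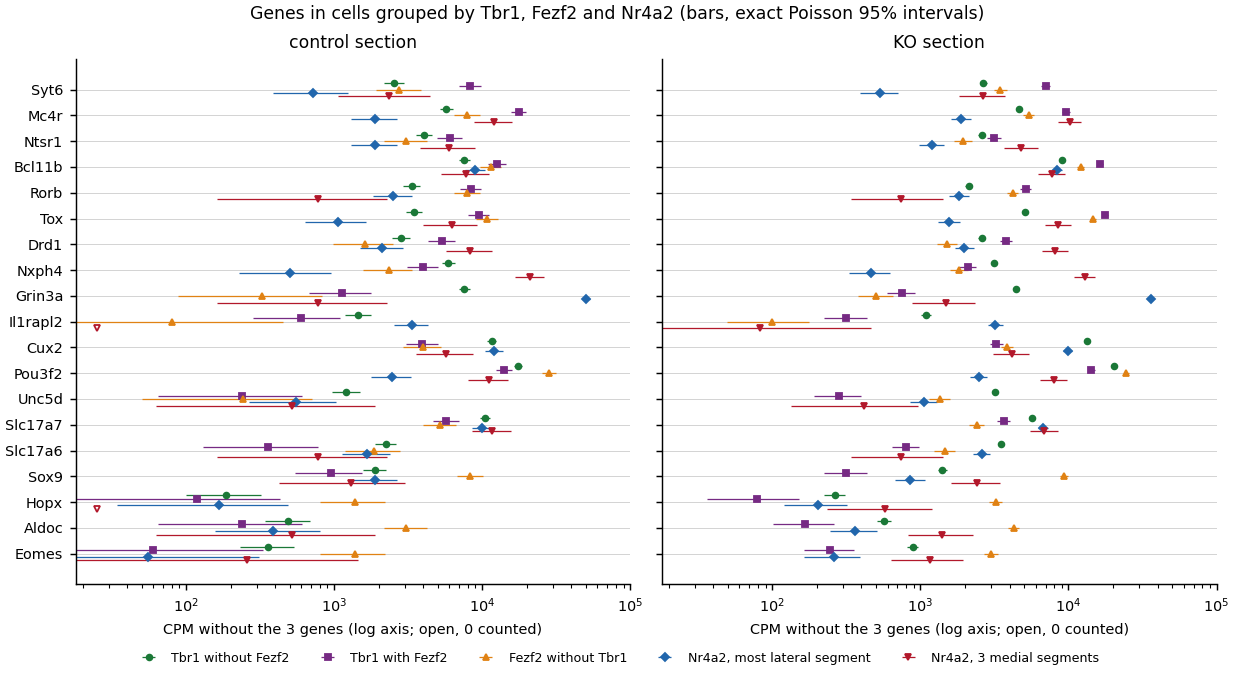
Level of 19 genes (CPM without *Tbr1*, *Fezf2* and *Nr4a2*, log axis) in 5 groups of pallial cells set by these 3 genes, in the control (left) and KO (right) sections, with exact Poisson 95% intervals as bars and open symbols for 0 counted. *Grin3a* and *Nxph4* part the lateral from the medial *Nr4a2* cells, and *Sox9*, *Hopx*, *Aldoc* and *Eomes* are, among these 5 groups, highest in cells with *Fezf2* and no *Tbr1*.

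Within the same zones, the genes most often found with *Tbr1* were *Drd1* (ratios of 1.27 and 1.28), *Syt6* (1.29 and 1.17) and *Ntsr1* (1.20 and 1.25), all of them known from corticothalamic neurons. With *Fezf2* they were *Rorb* (1.44 and 1.36), *Mc4r* (1.43 and 1.28) and *Tox* (1.32 and 1.28). With *Nr4a2* they were *Stac2* (2.04 and 1.44), *Grm3* (1.58 and 1.77), which encodes a metabotropic glutamate receptor, and *Grin3a* (1.43 and 1.81). Least often found with *Tbr1* were *Pmp22*, *Creb3l1* and *Dcn*, and with *Fezf2* *Klf4*, *Pdgfra* and *Dcn*, which are genes of non-neuronal cells, among others. With *Nr4a2* the lowest were *Reln* (0.599 and 0.462), *Unc5d* (0.406 and 0.539) and *Prox1* (0.403 and 0.480).

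Between the sections, the KO level in the pallial region was lower for *Nr4a2* and close to the control for *Tbr1* and *Fezf2*. The log2 ratio of KO over control was -0.67 (-0.70 to -0.63) for *Nr4a2*, -0.20 (-0.24 to -0.17) for *Fezf2* and -0.11 (-0.13 to -0.09) for *Tbr1*. Of the 3, *Nr4a2* was past 1.5-fold, as were 14.4% of the 250 more abundant panel genes on the lower side, while 17.2% were past it on the higher side and the median of the 250 was 0.01. *Nr4a2* stood at percentile 11.2 of these genes, *Fezf2* at 33.2 and *Tbr1* at 41.2. A minimum of 50 transcripts per cell, which few control cells reached, turned *Tbr1* to 0.24 and *Fezf2* to 0.39 and left *Nr4a2* at -0.75. The 1.5-fold call of *Nr4a2* was lost with a minimum of 10 transcripts (-0.53), with imaging plane 0 (-0.52), with the 3 genes in the outline (-0.51), for KO hemisphere 1 over control hemisphere 2 (-0.50), with all decoded molecules (-0.49) and with the KO section thinned to the control depth (-0.45), while its sign stayed the same. In bulk regions, fewer cells of a type and less RNA per cell cannot be told apart.

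The *Nr4a2* difference was not even along the cortex. In segments 1 to 3 its log2 ratios were -0.70, -0.90 and -1.25, in segment 4 it was 0.07 (-0.05 to 0.18), and in segment 5 it was -0.46 (-0.51 to -0.42). Of pallial cells, 44.8% on the control and 96.1% on the KO section reached 20 transcripts. Segment 5 gave 3225 of the 14026 control cells and 5063 of the 32470 KO cells, so that places were weighted unequally. The part of this in the whole-region ratio was not tested. Single hemispheres gave whole-region *Nr4a2* levels of 14101 and 11056 CPM on the control section and 7807 and 7349 CPM on the KO section. *Fezf2* was lower in all 5 segments, by -0.15 to -0.54, and *Tbr1* lay between -0.44 and 0.11. How closely the 2 cuts match in level and angle was not measured here, and their part in the result was not tested.

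The other genes of cortical projection neurons went in both directions. Of 34 genes listed for these neurons, 22 others than the 3 were on the panel and 18 of these were among the 250 more abundant ones. Past 1.5-fold higher in the KO section were *Eomes* (log2 ratio 1.58), a factor of intermediate progenitors, *Unc5d* (1.45), *Lhx2* (1.05), a factor of cortical stem cells, *Sstr2* (0.72) and *Foxp1* (0.60). Among those past 1.5-fold lower were *Slc17a7* (-0.90), *Rorb* (-0.70) and *Ntsr1* (-0.65). The median of the 18 was 0.06. *Bcl11b*, often named with *Fezf2*, was at 0.25, and *Nxph4*, which was rich in the medial *Nr4a2* cells, at -0.53.

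Outside the pallial region, 33.8% of control and 31.3% of KO *Nr4a2* transcripts were counted, against 23.6% and 17.4% for *Tbr1* and 20.7% and 11.5% for *Fezf2*. Much of the *Tbr1* and *Fezf2* signal outside lay against the outline, and beyond 100 µm from it the shares were 13.5% and 9.70% for *Tbr1*, 9.43% and 7.02% for *Fezf2*, and 30.3% and 28.0% for *Nr4a2*. *Nr4a2* thus had the largest share away from the cortex in both sections under this outline. With an abundance minimum of 4% for the outline, *Fezf2* had the larger share outside, at 38.8% against 36.6% for *Nr4a2* on the control section and 42.0% against 36.3% on the KO section. Sites were called where the smoothed level was at least 5000 CPM beyond 100 µm, and their leading genes are given as folds over all tissue beyond that distance.

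*Tbr1* had 1 main site outside, a ventral field across the midline of 1.25 mm² on the control section and 0.983 mm² on the KO section, centred 2457 and 2406 µm below the dorsal edge. It held 75.3% and 70.8% of the distant *Tbr1* transcripts, at 9577 and 10738 CPM. *Nxph4* (3.16- and 5.21-fold), *Slc17a6*, the glutamate transporter of subcortical neurons (3.16- and 3.99-fold), and *Irs4* (2.99- and 3.88-fold) were among the leading genes there. Over all cells outside the outline with at least 2 *Tbr1* transcripts, near or distant, *Prdm8* led 387 genes (29.4- and 48.8-fold). It was followed by *Slc17a7* (13.04- and 7.57-fold) and *Slc17a6* (6.84- and 9.46-fold), with *Nxph4* and *Sstr2* next. Of these 1449 control and 4524 KO cells, 755 and 3127 lay beyond 100 µm, so that cells next to the cortex are part of this list. *Slc17a7* was not raised at the ventral field itself (0.94- and 1.01-fold over all distant tissue). In distant cells with at least 2 *Tbr1* transcripts, the glutamatergic markers together stood at 6043 and 4899 CPM. In other distant cells they stood at 709 and 627 CPM. The GABAergic markers were at 25054 and 27953 CPM against 22964 and 26418 CPM. The other *Tbr1* sites, 2 on the control section and 4 on the KO section, were at most 0.117 mm² in area. The closest to the midline, 70.6 and 53.2 µm from it, were also rich in *Fezf2* (9.43- and 4.15-fold), and those centred 1610 µm or more from it had *Reln*, *Npy* or *Drd1* among their leading genes and little *Fezf2* (0.00- to 0.19-fold).

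*Nr4a2* had its main outside site at the ventral midline, above the *Tbr1* field, with 0.381 and 0.327 mm² centred 2123 and 2167 µm below the dorsal edge. Its level was 11405 and 10323 CPM, and it held 33.3% and 36.0% of the distant *Nr4a2* transcripts. *Onecut2* (4.17- and 7.13-fold), a homeobox factor, and *Irs4* (4.45- and 4.72-fold) were raised there in both sections, and *Slc17a6* was 2.42- and 5.08-fold. *Tbr1* and *Nr4a2* shared this site but were found together less often than their shares there would give, in 23 control cells against 37.6 expected over the site, a ratio of 0.612 (0.388 to 0.918), and in 52 KO cells against 81.6, a ratio of 0.638 (0.476 to 0.836). *Tbr1* and *Fezf2* were also short there, at ratios of 0.148 (0.004 to 0.827), from 1 control cell, and 0.455 (0.249 to 0.763), from 14 KO cells. No zones were used within the site, so that different layouts inside it can be part of these ratios. Monoamine markers (*Th* among them), known from the *Nr4a2* neurons of the midbrain, were at 877 and 565 CPM in distant *Nr4a2* cells against 717 and 1027 CPM in other distant cells.

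Another kind of *Nr4a2* site lay near the lateral and ventral rim of the section. On the control section these sites lay in tissue that was placed in neither the pallial nor the subpallial region. In 2 control sites and 2 KO sites, *Creb3l1* was 7.30-, 11.6-, 14.9- and 13.04-fold, *Klf4* was 7.89-, 7.83-, 13.9- and 9.81-fold, *Unc5b* or *Hhip* was also among the 5 leading genes, and *Tbr1* was at 0.00 to 0.09 of its distant level. A further control site at the rim was led by *Efemp1*, with *Creb3l1* at 6.90-fold. Over all cells outside the outline with at least 2 *Nr4a2* transcripts, near or distant, *Creb3l1* (5.48- and 4.63-fold), *Frzb*, *Unc5b* and *Rerg* were among the 5 leading genes. *Creb3l1* encodes a transcription factor known from bone formation. Mesenchymal markers summed to 17266 and 22677 CPM in distant *Nr4a2* cells and to 30210 and 26284 CPM in other distant cells. These sums pool the rim with the ventral midline site, where *Dcn*, one of the markers, was 0.001-fold on the control section. At the control rim sites *Dcn* was higher, at 3.12-fold in the site led by *Efemp1* and 1.74- and 1.24-fold in the others. The remaining 2 control sites lay ventrally, one led by *Reln* (5.88-fold) and one by *Sphkap* (6.26-fold), and *Fezf2* was also raised at both (2.84- and 7.25-fold).

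*Fezf2* had small sites outside the cortex, of at most 0.119 mm². Near the medial edge of the cortex, 2 control sites (11578 and 9130 CPM) and 2 KO sites (7778 and 7802 CPM) were rich in *Aldoc*, which was 10.1-, 7.91-, 6.30- and 16.0-fold, and in *Olig1*, at 3.55- to 13.1-fold. A ventral site with *Sphkap* as its leading gene (6.55- and 11.5-fold) appeared in both sections, 494 and 516 µm from the midline, at 11471 and 9803 CPM of *Fezf2*. In the KO section, a pair of sites on opposite sides, 695 and 1047 µm from the midline and 3013 and 2850 µm below the dorsal edge, had 12496 and 15057 CPM of *Fezf2*. *Wnt7b*, a secreted WNT ligand, was 36.8- and 41.7-fold there and *Tbr1* 0.11- and 0.13-fold. No control *Fezf2* site had *Wnt7b* among its 5 leading genes, and the level of the cut cannot be told apart from the genotype in this. The last KO site, 137 µm from the midline and 1933 µm below the dorsal edge, was rich in *Onecut2* (13.2-fold), *Prox1* (7.73-fold) and *Nr4a2* (4.83-fold) and had *Tbr1* at 0.25-fold. Over all cells outside the outline with at least 2 *Fezf2* transcripts, the leading genes were *Hopx* (7.24- and 15.4-fold), *Gfap* (10.0- and 9.19-fold), *Prdm8*, *Sstr2* and *Lhx2*. Of these 495 control and 1624 KO cells, 183 and 969 lay beyond 100 µm, so that cells next to the cortex are part of this list.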

How the data were processed

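In the study, 10 µm coronal cryosections of fresh-frozen tissue were hybridised with the Pan Neuro panel on a MERSCOPE instrument, which decoded the RNA signals and outlined cells. Per the file headers, the deposited tables hold counts of each panel transcript and blank barcode per cell, which the authors left as raw counts. The deposited cell metadata give the position of each cell and the volume signal of its outline, taken as µm³, and the deposited molecule tables list each decoded molecule with its position. The version of the instrument software is not given in the sources used here.

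Blank barcodes were left out. Cells with under 20 panel transcripts were left out. The pallial region was outlined on a grid of 25 µm, smoothed with a standard deviation of 50 µm, where pallial genes other than the 3 made up over 50% of pallial plus subpallial transcripts and both lists together at least 2.5% of all transcripts. Relative depth was cut into 10 bins and the angle around each hemisphere into 5 segments of equal area. Cells were thinned to 25 transcripts, or 100 for deeper cells, with a fixed seed. No doublet caller was run, since cells were segmented on images, and overlapping cells in a section can add joint detection. Sites outside had at least 5000 CPM beyond 100 µm over at least 0.02 mm², and their leading genes at least 500 CPM over that tissue. The genes named were the 3 members, a list of 34 projection neuron genes, the 5 genes nearest to each member in layout, the 3 most and 3 least codetected with it among genes in at least 2% of thinned cells, the 5 leading outside the region, and the leading genes of each site. One gene that this rule names is not reported here. Genes of the cell groups come from those lists and the marker lists, and *Grin3a* in the patch was taken from its layout. Levels have exact Poisson and shares exact Clopper-Pearson 95% intervals, for counting error only, and a level or share is given with no test between sections. Scripts were checked on simulated data.

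The members and lists were chosen with earlier results of these data known. The abundance minimum, the thresholds for sites and the *Nr4a2* patch, the fold used for codetection and the finer zones were settled with the maps of both sections in view. Alternatives covered the minimum per cell, decoded molecules in place of cells, single hemispheres, thinning, the outline and the zones. Gene models were matched through the transcript identifiers in the molecule tables to GENCODE vM39 on GRCm39. Python 3.11.15, NumPy 2.4.6, SciPy 1.17.1, scikit-image 0.26.0, pandas 2.3.3 and Matplotlib 3.10.9 were used.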

Additional observations from a re-analysis of the deposited data

How the results depend on the processing

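Of 189 recomputed values, 67 moved by less than their counting error, 119 moved by more, and 3 whose interval had lain clear of no difference changed direction. Intervals cover counting error only. The minimum of 50 transcripts turned *Tbr1* and *Fezf2* from lower to higher in the KO section, and *Tbr1* with *Nr4a2* fell below 1 in the control section at 2 or more transcripts per gene. The control ratio of *Fezf2* with *Nr4a2*, whose interval spans 1, also went from above to below 1 under 4 alternatives, at 0.799 to 0.975. The lower *Nr4a2* level in the KO section and its lateral excess kept their direction under all alternatives run. The abundance minimum and the finer zones were added after the sections had been seen. No paired analysis was possible because each group holds 1 section. Leaving out a replicate was not possible for the same reason. The depth of the control section limits the joint detection of *Fezf2* and *Nr4a2*, which rested on 321 cells there. The causes of these changes were not tested.

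The log2 ratio of KO over control in the pallial region changed sign for *Tbr1* and *Fezf2* with the minimum of transcripts per cell, and *Nr4a2* fell short of 1.5-fold under 6 alternatives, at -0.53 to -0.45. With a minimum of 10 transcripts per cell, *Tbr1* was at -0.14, *Fezf2* at -0.24 and *Nr4a2* at -0.53. With a minimum of 50, *Tbr1* was at 0.24, *Fezf2* at 0.39 and *Nr4a2* at -0.75. With molecules of imaging plane 0, *Tbr1* was at -0.086, *Fezf2* at -0.27 and *Nr4a2* at -0.52. For KO hemisphere 1 over control hemisphere 2, *Tbr1* was at -0.010, *Fezf2* at -0.12 and *Nr4a2* at -0.50. For KO hemisphere 2 over control hemisphere 1, *Tbr1* was at -0.24, *Fezf2* at -0.36 and *Nr4a2* at -0.94. For KO hemisphere 2 over control hemisphere 2, *Tbr1* was at -0.15, *Fezf2* at -0.16 and *Nr4a2* at -0.59. With the 3 genes in the outline, *Tbr1* was at -0.029 and *Nr4a2* at -0.51. With an abundance minimum of 4%, *Tbr1* was at -0.15 and *Fezf2* at -0.39. With all decoded molecules, *Fezf2* was at -0.15 and *Nr4a2* at -0.49. For KO hemisphere 1 over control hemisphere 1, *Fezf2* was at -0.31 and *Nr4a2* at -0.85. With KO thinned to control depth, *Fezf2* was at -0.33 and *Nr4a2* at -0.45.

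Codetection ratios depended on the zones and on the rule for detection. At 50 transcripts, *Tbr1* and *Fezf2* control was at 1.22. At 2 or more transcripts, *Tbr1* and *Fezf2* control was at 1.24, *Tbr1* and *Nr4a2* control at 0.985, *Fezf2* and *Nr4a2* control at 0.799 and *Fezf2* and *Nr4a2* KO at 0.631. Over the whole region, *Tbr1* and *Fezf2* control was at 1.24, *Tbr1* and *Nr4a2* control at 1.25, *Fezf2* and *Nr4a2* control at 0.809, *Tbr1* and *Fezf2* KO at 1.21, *Tbr1* and *Nr4a2* KO at 1.21 and *Fezf2* and *Nr4a2* KO at 0.732. In zones of 10 depth bins, *Tbr1* and *Fezf2* control was at 1.04 and *Tbr1* and *Fezf2* KO at 1.05. At 15 transcripts, *Fezf2* and *Nr4a2* control was at 0.966 and *Fezf2* and *Nr4a2* KO at 0.755. Without *Gad1* or *Gad2* cells, *Fezf2* and *Nr4a2* KO was at 0.821.

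With all segments pooled, the order *Fezf2*, *Tbr1*, *Nr4a2* of the median relative depths was kept under each alternative, while the values moved. With a minimum of 10 transcripts per cell, *Tbr1* control was at 0.426 and *Fezf2* control at 0.316. With all decoded molecules, *Tbr1* control was at 0.427, *Fezf2* control at 0.309, *Tbr1* KO at 0.390 and *Fezf2* KO at 0.247. In hemisphere 1, *Tbr1* control was at 0.370, *Fezf2* control at 0.250, *Tbr1* KO at 0.369, *Fezf2* KO at 0.246 and *Nr4a2* KO at 0.555. In hemisphere 2, *Tbr1* control was at 0.440, *Fezf2* control at 0.340, *Tbr1* KO at 0.414, *Fezf2* KO at 0.254 and *Nr4a2* KO at 0.580. With the 3 genes in the outline, *Tbr1* control was at 0.454, *Fezf2* control at 0.395, *Tbr1* KO at 0.426, *Fezf2* KO at 0.294 and *Nr4a2* KO at 0.555. With an abundance minimum of 4%, *Tbr1* control was at 0.387, *Fezf2* control at 0.289, *Nr4a2* control at 0.487, *Tbr1* KO at 0.365, *Fezf2* KO at 0.258 and *Nr4a2* KO at 0.465.

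The log2 ratios of lateral over medial kept their signs under each alternative run. With 3 segments, *Tbr1* control was at 0.077, *Fezf2* control at -1.72, *Nr4a2* control at 2.48, *Tbr1* KO at 0.30, *Fezf2* KO at -1.73 and *Nr4a2* KO at 2.94. With a minimum of 10 transcripts per cell, *Tbr1* control was at 0.28. With all decoded molecules, *Tbr1* control was at 0.26, *Tbr1* KO at 0.11 and *Fezf2* KO at -3.30. In hemisphere 1, *Tbr1* control was at 0.26, *Tbr1* KO at 0.28 and *Fezf2* KO at -2.79. With the 3 genes in the outline, *Tbr1* control was at 0.63, *Tbr1* KO at 0.35, *Fezf2* KO at -4.35 and *Nr4a2* KO at 3.31. With an abundance minimum of 4%, *Tbr1* control was at 0.063, *Fezf2* control at -2.21, *Nr4a2* control at 2.65, *Tbr1* KO at 0.60, *Fezf2* KO at -1.77 and *Nr4a2* KO at 3.42. In hemisphere 2, *Nr4a2* control was at 3.55, *Tbr1* KO at 0.0035 and *Fezf2* KO at -3.77.

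The share of transcripts outside the pallial region depended on the outline, and the abundance minimum of 4% put *Fezf2* above *Nr4a2*. At a pallial share over 40%, *Tbr1* control was at 21.4%, *Tbr1* KO at 14.7% and *Fezf2* KO at 11.03%. At a pallial share over 60%, *Tbr1* control was at 26.7%, *Fezf2* control at 21.5%, *Nr4a2* control at 35.1%, *Tbr1* KO at 23.2%, *Fezf2* KO at 17.1% and *Nr4a2* KO at 33.5%. With all decoded molecules, *Tbr1* control was at 22.5%, *Nr4a2* control at 35.4%, *Tbr1* KO at 16.9% and *Nr4a2* KO at 32.2%. With the 3 genes in the outline, *Tbr1* control was at 13.3%, *Fezf2* control at 7.72%, *Nr4a2* control at 30.9%, *Tbr1* KO at 10.8%, *Fezf2* KO at 6.99% and *Nr4a2* KO at 28.3%. With an abundance minimum of 4%, *Tbr1* control was at 31.1%, *Fezf2* control at 38.8%, *Nr4a2* control at 36.6%, *Tbr1* KO at 29.8%, *Fezf2* KO at 42.0% and *Nr4a2* KO at 36.3%.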
